A study of Mus musculus with 6 samples.

Results

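The complement genes described here were C1qa, C1qb, C1qc, C3, Cfb, Cfp, C3ar1, C5ar1 and C1s1. They were found by symbol in the table of gene counts, where all 9 were present among 55453 rows, and all 9 passed the filter on low counts. RNA-Seq was measured in 6 libraries of mouse bone marrow-derived macrophages (BMDM), which are macrophages grown from marrow precursors in culture. The PP2Ac KO group held 3 libraries from LysM cre PP2Ac fl/fl mice, in which a Cre recombinase driven by the Lysozyme 2 promoter, active in myeloid cells, removes floxed sequence of Ppp2ca, the gene for a catalytic subunit of the phosphatase PP2A. The WT group held 3 libraries from C57BL/6 mice. The labels give no treatment, whereas the study describes its BMDM for RNA-Seq as treated with cGAMP, a STING agonist, so the libraries may all be cGAMP-treated and no untreated library was analysed here. Whether the WT mice were littermates, or carried Cre or floxed alleles alone, was not stated for these libraries, so the deletion and the alleles that produce it cannot be told apart. The mice were of both sexes and 6 to 10 weeks old, and which sex and age stood behind each library was not given. The study describes its cell experiments in general as biological triplicates. The labels do not say whether the 3 libraries of a group came from separate mice or cultures, and p-values measure the spread between these libraries, part of which may be technical.

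Complement is a set of plasma and cell surface proteins that tag microbes and dying cells and attract leukocytes. The classical pathway starts when C1q, built of A, B and C chains, binds its target and the proteases C1r and C1s attached to it cleave C4 and C2. The alternative pathway starts from C3 itself: cleaved C3 binds factor B, which forms the convertase that cleaves more C3, and properdin stabilizes that enzyme. The small fragments C3a and C5a act on the G protein-coupled receptors C3ar1 and C5ar1. Most complement proteins in plasma come from the liver, but C1q and properdin come largely from myeloid cells.

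The promoters of C1qb, a classical pathway gene, and C3, listed here with the alternative pathway but used by all pathways, are shown because these genes rose by different amounts. Both sequences were taken from RefSeq (GRCm38.p6), are on the reverse strand and hold the 250 bases before the annotated start, with capitals where a searched motif was found on either strand.
C1qb, chr4:136886201-136886450: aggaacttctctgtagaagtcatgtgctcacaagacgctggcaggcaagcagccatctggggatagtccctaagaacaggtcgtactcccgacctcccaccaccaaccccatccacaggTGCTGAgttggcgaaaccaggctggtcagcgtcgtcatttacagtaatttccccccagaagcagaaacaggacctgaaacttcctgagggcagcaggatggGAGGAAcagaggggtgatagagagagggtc
C3, chr17:57228137-57228386: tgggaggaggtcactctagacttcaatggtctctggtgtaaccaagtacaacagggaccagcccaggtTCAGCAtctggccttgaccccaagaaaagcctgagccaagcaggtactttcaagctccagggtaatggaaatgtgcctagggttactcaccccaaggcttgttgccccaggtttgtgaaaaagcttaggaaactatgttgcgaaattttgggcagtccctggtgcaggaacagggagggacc
Searched were the gamma-interferon activated site (GAS, an element bound by STAT factors), the interferon-stimulated response element (ISRE, bound by STAT and IRF complexes), the letters TGCTGA (part of the site of Maf factors) and the letters GAGGAA (a core of ETS factors such as PU.1). In windows that also took in 50 bases after the start, positions being counted with the first transcribed base as 0, the C1qb window held the Maf element at -131 and the ETS core at -30, and the C3 window held the Maf element at -182. Of the 9 genes, 7 were matched in the RefSeq table, and neither a GAS nor an ISRE was found in their 8 windows. Among 32851 promoter windows of the same length the GAS was found in 8.3%, the ISRE in 3.44%, the Maf element in 19.5% and the ETS core in 28.3%. A match describes letters only and is no measure of binding.

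The libraries held 35257156 to 47390899 counts, and levels are given as CPM, counts brought to a common library total after scaling by the trimmed mean of M-values (TMM). At these depths 3 counts, used as the floor, correspond to 0.0604 to 0.0909 CPM. The TMM factors were 0.91 to 0.94 in PP2Ac KO and 1.05 to 1.10 in WT, so the scaling raised every PP2Ac KO level relative to WT. On unscaled totals the higher genes would show smaller log2 fold changes, and a small rise, such as that of Cr1l below, could vanish. The lower genes would lie further below WT. Ppp2ca had 47, 33 and 38 counts in PP2Ac KO against 10654, 8913 and 8279 in WT, a log2 fold change of -7.67. The macrophage markers Adgre1, Csf1r, Cd68, Mertk, Fcgr1 and Itgam were all measured, with summed levels of 7286 to 7474 CPM in PP2Ac KO and 6162 to 6794 CPM in WT. Of these 6, Fcgr1 (log2 fold change 0.70, edgeR FDR = 4.9e-04) and Mertk (0.27, FDR = 0.040) were higher and 4 did not pass, where 18.1% of all genes were higher. Their part in the complement levels was not tested. Neutrophil, T and NK cell markers other than Csf3r were at 7 counts or fewer, with Ly6g and Cd8a at 0 in every library. Csf3r, a receptor listed with the neutrophil markers, had 132, 124 and 128 CPM in PP2Ac KO and 90.0, 83.8 and 83.0 CPM in WT, with no overlap and a log2 fold change of 0.58 (edgeR FDR = 1.9e-04). Its part in the complement levels was not tested. Dendritic cell markers summed to 2.18 to 3.16 CPM in PP2Ac KO and 1.24 to 2.05 CPM in WT, and B cell markers to 0.684 to 1.34 and 0.501 to 0.584 CPM. Of the 4 dendritic cell markers tested, Clec9a (1.25, edgeR FDR = 0.028) and Siglech (0.97, FDR = 0.019) were higher and 2 did not pass. The fibroblast markers differed between the groups and are given beside C1s1. A gene was called higher or lower when edgeR's quasi-likelihood test, adjusted by Benjamini-Hochberg over 13680 genes (FDR), gave a value under 0.05.

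Of the 9 complement genes, 7 were higher in PP2Ac KO, 1 (C1s1) was lower and 1 (C5ar1) did not pass. Among all genes tested 18.1% were higher and 19% were lower, so that 37.1% passed in either direction. The median log2 fold change of the 9 was 0.42 against -0.02 for all genes tested. For each of the 9 the PP2Ac KO and WT libraries did not overlap, as was the case for 50.9% of all genes. At a log2 fold change over 1 and an FDR under 0.01, the limits with which the study chose upregulated genes and which are applied here to both directions, 2 of the 9, C3 and Cfb, were higher and 0 were lower, against 3.36% and 2.99% of all genes. Cfb passed the low-count filter only through its PP2Ac KO libraries, so its place among the higher genes is no independent support. With the filter omitted its log2 fold change was 2.95 (edgeR FDR = 2.5e-07). The summed level of the 9 genes was 8129 to 8251 CPM in PP2Ac KO and 5977 to 6155 CPM in WT.

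**Figure D1:**
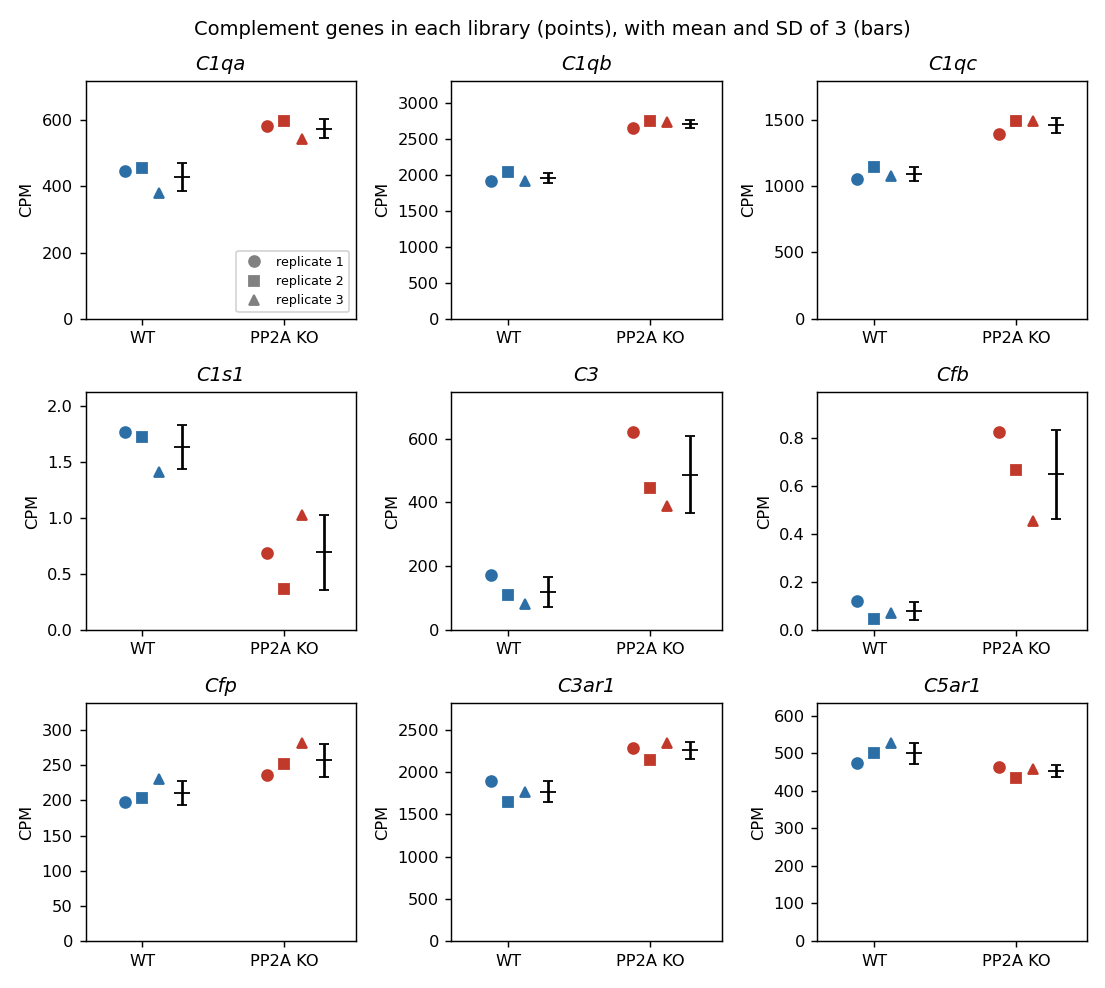
Level of each of the 9 genes in CPM (y axes, each from 0) in the 3 WT and 3 PP2Ac KO libraries (x axes), with a symbol per replicate and bars for the mean and SD of 3. PP2Ac KO points lie above all WT points for 7 genes and below them for C1s1 and C5ar1; the distance is largest relative to WT for C3 and Cfb.

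The 3 chains of C1q, the recognition molecule of the classical pathway, were higher in PP2Ac KO by near-equal factors. C1qa, the A chain, had 583, 599 and 543 CPM in PP2Ac KO and 448, 456 and 381 CPM in WT. The lowest PP2Ac KO library was above the highest WT library, with a log2 fold change of 0.43 ± 0.08 (SE, n = 3 and 3; edgeR FDR = 0.0040). C1qb, the B chain, had 2648, 2754 and 2734 CPM in PP2Ac KO and 1919, 2036 and 1917 CPM in WT. The spread within each genotype was small beside the distance between them, and its log2 fold change was 0.47 ± 0.07 (edgeR FDR = 7.7e-04). C1qc, the C chain, had 1393, 1490 and 1496 CPM in PP2Ac KO and 1053, 1149 and 1074 CPM in WT. Its log2 fold change was 0.42 ± 0.07 (edgeR FDR = 0.0017). The 3 chains together took 0.421, 0.453 and 0.447% of all counts in PP2Ac KO and 0.359, 0.396 and 0.370% in WT, so their summed share was also higher in every PP2Ac KO library without TMM scaling.

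The 3 C1q genes lie side by side on the reverse strand of chromosome 4 (GRCm38, GENCODE M21), within 18675 bp. C1qb spans 136880129 to 136886187, C1qc 136889804 to 136893065 and C1qa 136895917 to 136898803, each with 3 exons. None shares exons or any 50-base stretch with another annotated gene. The log2 ratio of C1qa to C1qb was -2.24 in PP2Ac KO and -2.20 in WT on the count scale, with overlapping groups (exact two-sided permutation p = 0.5), and that of C1qc to C1qb was -0.89 and -0.84, without overlap (exact p = 0.1, the smallest that 3 against 3 libraries can give). Over the 6 libraries the log2 CPM of C1qb and C1qc had a Pearson correlation of 0.994. Among all genes tested C1qb ranked 9 in likeness to C1qc, a description in which the step between the genotypes is included.

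C1s1, which encodes the protease of the C1 complex that cleaves C4 and C2, was lower in PP2Ac KO. It had 29, 12 and 43 counts in PP2Ac KO and 88, 75 and 59 counts in WT, or 0.684, 0.364 and 1.03 CPM against 1.77, 1.73 and 1.41 CPM. The groups did not overlap and the PP2Ac KO libraries were the more spread. The log2 fold change was -1.21 ± 0.30 (edgeR FDR = 0.011). Summed over 3 libraries, 84 against 222 counts gave a ratio of 0.436 with an exact 95% interval of 0.335 to 0.563, which covers counting error only. Of the 50-base stretches of its exons, 21.8% occur also in C1s2, so reads could have been divided between these copies. Gm16567, on the opposite strand, overlaps 576 of the 3129 exon bases of C1s1 (18.4%). The part of either overlap in the C1s1 counts was not tested.

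C1ra, which encodes the C1r protease that activates C1s, moved the other way. It had 8.13, 7.85 and 6.47 CPM in PP2Ac KO and 4.65, 4.25 and 2.84 CPM in WT, with no overlap. Its log2 fold change was 0.93 ± 0.18 (edgeR FDR = 0.0030), although 50.8% of its 50-base stretches occur in C1rb or Gm18840. C1ra and C1s1 are neighbours on chromosome 6, 6901 bp apart and on opposite strands, C1ra at 124512405 to 124523443 and C1s1 at 124530345 to 124542359. The log2 ratio of C1ra to C1s1 was 3.55 in PP2Ac KO and 1.24 in WT, and the libraries did not overlap (exact two-sided permutation p = 0.1, BH-adjusted over 8 ratios 0.133). C4b, a target of C1s, had a log2 fold change of 1.51 (edgeR FDR = 9.5e-04), and its copy C4a had -0.55 (FDR = 0.16). The 2 C4 genes share 30.6% of the 50-base stretches of C4a, and their summed counts had a log2 fold change of 0.97 (edgeR FDR = 0.0024). C2, the other target, had 6 to 13 counts and was not tested. It shares 1656 of its 3872 exon bases (42.8%) with Gm20547, a read-through gene described below with Cfb. The part of this overlap in the low counts of C2 was not tested.

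Markers of fibroblasts, a stromal cell type that marrow cultures can hold, were lower in the same direction as C1s1. Of 7 markers listed, 6 were tested and all 6 (Col1a1, Col1a2, Col3a1, Dcn, Pdgfra and Pdgfrb) were lower, their median being -1.64 on the log2 scale. Lum was at 6 counts or fewer. The call of Pdgfra was lost without PP2Ac KO replicate 2 (FDR = 0.058) and without WT replicate 2 (FDR = 0.057). The summed level of the 7 markers was 24.9 to 37.4 CPM in PP2Ac KO and 80.8 to 125 CPM in WT. In bulk libraries fewer cells of a type and less RNA per cell cannot be told apart. The part of these cells in the C1s1 level was not tested.

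Soluble inhibitors of complement were lower in PP2Ac KO as well, with Serping1 and Clu tested here. Serping1, the C1 inhibitor that inactivates C1r and C1s, had 3.04, 3.57 and 1.87 CPM against 5.60, 6.00 and 3.15 CPM. Its groups overlapped, and its log2 fold change was -0.81 ± 0.28 (edgeR FDR = 0.045). That call was lost with RLE scaling (FDR = 0.057), with limma-voom (FDR = 0.056) and without PP2Ac KO replicate 1 (0.088), PP2Ac KO replicate 3 (0.13), WT replicate 1 (0.098) or WT replicate 2 (0.15). Clu, clusterin, an inhibitor of the terminal complex, had 8, 7 and 7 counts against 17, 28 and 20 counts, with a log2 fold change of -1.35 (edgeR FDR = 0.015). Clu passed the low-count filter only through its WT libraries, where it was high, so its call as lower is no independent support. Without PP2Ac KO replicate 1, PP2Ac KO replicate 3 or WT replicate 2 its FDR was 0.051, 0.054 and 0.063. The other 7 soluble regulators listed had 2 counts or fewer in every library. The fibroblast markers were lower in the same libraries, and their part in these levels was not tested.

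**Figure D2:**
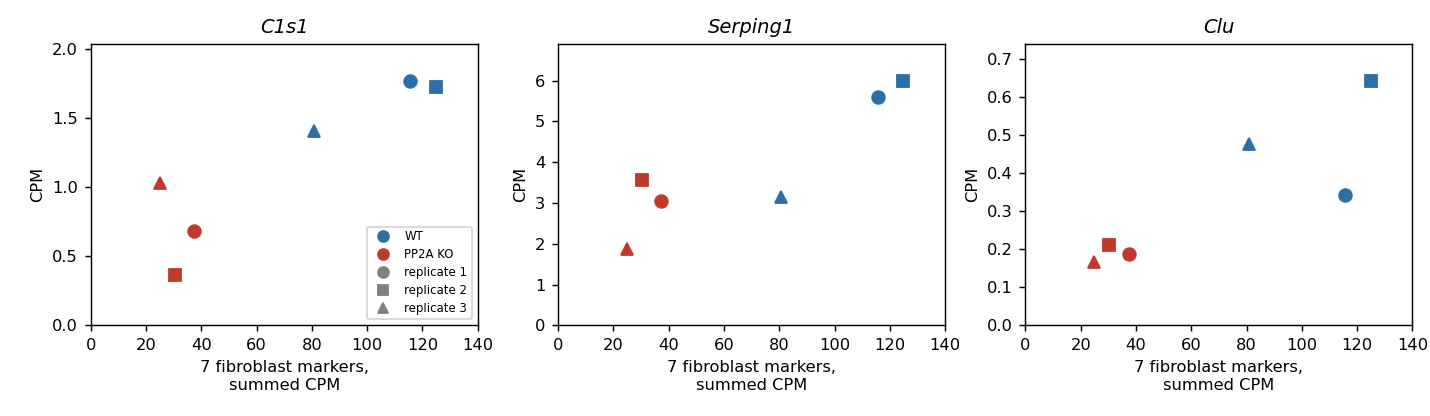
Level of C1s1, Serping1 and Clu in CPM (y axes) against the summed CPM of 7 fibroblast markers (x axes), 1 point per library, with colours for genotype and symbols for replicate. All PP2Ac KO libraries lie at 24.9 to 37.4 CPM of the markers and all WT libraries at 80.8 to 125 CPM; only Serping1 has a WT library between PP2Ac KO libraries in level.

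In the alternative pathway, C3, Cfb and Cfp were all higher in PP2Ac KO, with log2 fold changes of 2.02, 2.95 and 0.29. C3, the central component of all pathways, had 26360, 14741 and 16265 counts in PP2Ac KO and 8506, 4698 and 3335 in WT, or 621, 447 and 390 CPM against 171, 108 and 79.6 CPM. The lowest PP2Ac KO library was above the highest WT library, although libraries of 1 genotype also differed from each other. The log2 fold change was 2.02 ± 0.27 (SE; edgeR FDR = 4.9e-04), or 4.06-fold. Between libraries of the same replicate number the ratio was 3.63, 4.13 and 4.90. Replicate 1 was the highest of its group in both genotypes. C3 lies on chromosome 17 from 57203970 to 57228136, with 41 exons.

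Cfb, factor B, was at 35, 22 and 19 counts in PP2Ac KO and 6, 2 and 3 counts in WT. These are 0.825, 0.666 and 0.455 CPM against 0.121, 0.0460 and 0.0716 CPM, and the groups did not overlap. The fitted log2 fold change was 2.95 ± 0.42 (edgeR FDR = 7.3e-04). The summed counts, 76 against 11, gave a ratio of 7.97 with an exact 95% counting interval of 4.21 to 16.6. Because all WT libraries were under 10 counts, the gene has no value when 10 counts in every library are required. It passed the low-count filter only through its PP2Ac KO libraries, so its call as higher is no independent support. The 2 and 3 counts of WT replicates 2 and 3 were under or at the floor.

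The level of Cfb is limited by how its locus is annotated. Cfb lies on chromosome 17 from 34856374 to 34862518, and Gm20547, a read-through gene on the same strand, joins exons of the neighbouring C2 to those of Cfb. Gm20547 shares 2246 of the 2825 exon bases of Cfb, or 79.5%, and leaves 579 bases to Cfb alone. All 3902 exon bases of Gm20547 lie in exons of Cfb or C2, and it had 0 counts in all 6 libraries. A counter that sets aside reads lying on several genes would leave Gm20547 at 0 by its construction and would count Cfb from the remaining bases. The counting mode was not given in the sources used here, and its part in the low counts of Cfb was not tested. The annotation is the same for both genotypes.

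**Figure D3:**
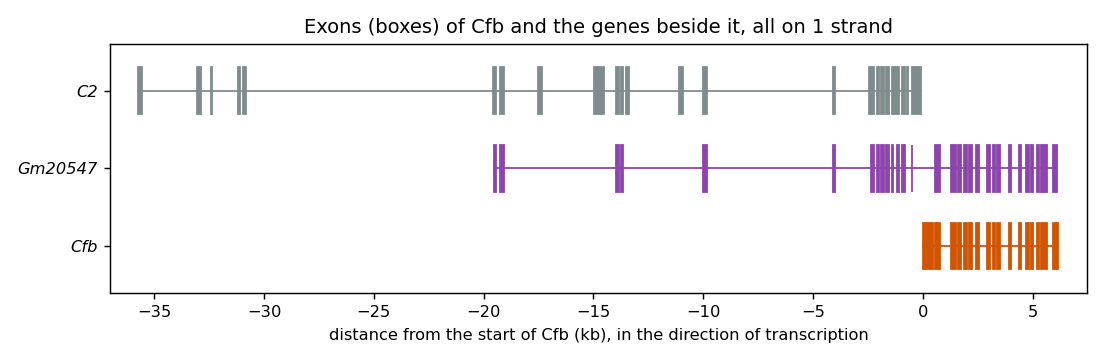
Exons (boxes) of C2, Gm20547 and Cfb along the locus, with distance from the start of Cfb in kb in the direction of transcription on the x axis and 1 row per gene. Gm20547 runs over exons of both neighbours and shares 79.5% of the exon bases of Cfb.

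Cfp, properdin, had 236, 252 and 282 CPM in PP2Ac KO and 198, 204 and 230 CPM in WT. The groups were separated by a narrow margin, the lowest PP2Ac KO library being just above the highest WT library. Without TMM scaling the Cfp groups overlapped, with 10029 of 46647682 counts in PP2Ac KO replicate 1 and 9639 of 38235133 in WT replicate 3. Its log2 fold change was 0.29 ± 0.09 (edgeR FDR = 0.029), and between same-numbered libraries the ratio was 1.196, 1.236 and 1.226. The call was lost without PP2Ac KO replicate 2 (FDR = 0.072), PP2Ac KO replicate 3 (0.11), WT replicate 1 (0.054) or WT replicate 2 (0.10), and with upper-quartile scaling (0.079). Cfp lies on chromosome X from 20925454 to 20931555. Cfd, factor D, the protease that cleaves bound factor B, had 0 counts in all 6 libraries, which allows up to 3 counts in each.

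Genes listed under the alternative pathway were each set against C1qb within each library, which removes the library scaling. These ratios compare single genes and not whole pathways, since C3 serves all pathways. C1qb, with a log2 fold change of 0.47, also does not stand for all classical genes. C4b and C1ra had 1.51 and 0.93. The log2 ratio of C3 counts to C1qb counts was -2.09, -2.62 and -2.81 in PP2Ac KO and -3.49, -4.24 and -4.59 in WT. It was higher by 1.60 in PP2Ac KO, with no overlap (exact two-sided permutation p = 0.1, the smallest possible; BH-adjusted over 8 ratios 0.133). For Cfb to C1qb the difference was 2.63, also without overlap (exact p = 0.1, adjusted 0.133). For Cfp to C1qb it was -0.18, with overlapping groups (exact p = 0.3, adjusted 0.343). Between same-numbered libraries this ratio was lower in PP2Ac KO in 3 of 3 pairs, with differences of -0.21, -0.13 and -0.22. Within the classical pathway the log2 ratio of C1s1 to C1qb was lower by 1.83 in PP2Ac KO, without overlap (exact p = 0.1, adjusted 0.133). With 3 libraries per group none of these ratios can pass 0.05.

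Of the receptor genes for the fragments C3a and C5a, C3ar1 was higher in PP2Ac KO and C5ar1 did not pass. C3ar1, the C3a receptor, had 2288, 2151 and 2348 CPM in PP2Ac KO and 1891, 1644 and 1767 CPM in WT. Every PP2Ac KO library was above every WT library, and the log2 fold change was 0.36 ± 0.08 (edgeR FDR = 0.0065). C5ar1, the main C5a receptor, had 465, 435 and 457 CPM in PP2Ac KO and 473, 500 and 528 CPM in WT. The highest PP2Ac KO library was just under the lowest WT library, and the log2 fold change of -0.15 ± 0.07 did not pass (edgeR FDR = 0.13). With the replicate numbers as a block the value was -0.14 and passed (edgeR FDR = 0.026), and so it did with upper-quartile scaling (-0.21, FDR = 0.043) and without WT replicate 1 (-0.18, FDR = 0.048). With the block or without WT replicate 1, 2 of the 9 genes were therefore lower rather than 1; with the block 24.4% of all genes were higher and 26.4% lower. The log2 ratio of C3ar1 to C5ar1 was 2.30, 2.31 and 2.36 in PP2Ac KO and 2.00, 1.72 and 1.74 in WT, a difference of 0.50 without overlap (exact two-sided permutation p = 0.1, adjusted 0.133). Both genes have 2 exons, C3ar1 on chromosome 6 from 122847138 to 122856161 and C5ar1 on chromosome 7 from 16246743 to 16259540.

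Among the other receptors, Itgax, the alpha chain of complement receptor CR4, had 71.4, 66.3 and 67.5 CPM in PP2Ac KO and 115, 113 and 103 CPM in WT. Its libraries did not overlap, with a log2 fold change of -0.69 ± 0.07 (edgeR FDR = 1.3e-04). Itgb2, the beta chain that it shares with Itgam, had a log2 fold change of -0.23 (edgeR FDR = 0.017), a call lost without PP2Ac KO replicate 2 (FDR = 0.076) or WT replicate 2 (FDR = 0.055). Itgam, the alpha chain of CR3, had -0.09 (FDR = 0.52) and 0.02 without WT replicate 1. It shares 3450 of its 5024 exon bases (68.7%) with Gm49368 on the same strand, and the part of this overlap in its counts was not tested. C5ar2, the second C5a receptor, had -0.19 (FDR = 0.10; with the replicate block FDR = 0.029, with upper-quartile scaling 0.040). C1qbp, a protein that binds C1q, had -0.18 (FDR = 0.18; with the replicate block FDR = 0.043, without WT replicate 1 FDR = 0.022). Of the 9 receptor genes listed, 7 were tested, 1 was higher and 2 were lower, against 18.1% and 19% of all genes. With the replicate block 5 of the 7 were lower, against 26.4% of all genes.

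On a scale of CPM per kilobase of exon, which allows genes to be compared, C1qb was the most abundant of the 9 in both genotypes. In WT it stood at 1799 ± 62.6 CPM per kilobase (SD, n = 3), followed by C1qc at 566 ± 26.1 (908 per kilobase of its longest transcript, against 1213 in PP2Ac KO), C1qa at 412 ± 39.4 and C3ar1 at 411 ± 28.7. The libraries of C1qa and C3ar1 overlapped on this scale, and those of all other neighbours in the WT order did not. C5ar1 stood at 195 ± 10.7 CPM per kilobase, Cfp at 121 ± 9.83 and C3 at 23.3 ± 9.12. C1s1 was at 0.522 ± 0.063 and Cfb at 0.028 ± 0.014 CPM per kilobase. In PP2Ac KO the first 7 kept this order, with C1qb at 2493 ± 51.8 and C3 at 94.5 ± 23.5 CPM per kilobase. The distance of C3 from Cfp, at 148 ± 13.3, was smaller there, while Cfb at 0.230 ± 0.066 and C1s1 at 0.221 ± 0.107 CPM per kilobase overlapped. The value of Cfb uses all its exon bases and is therefore a low estimate if shared bases were not counted.

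**Figure D4:**
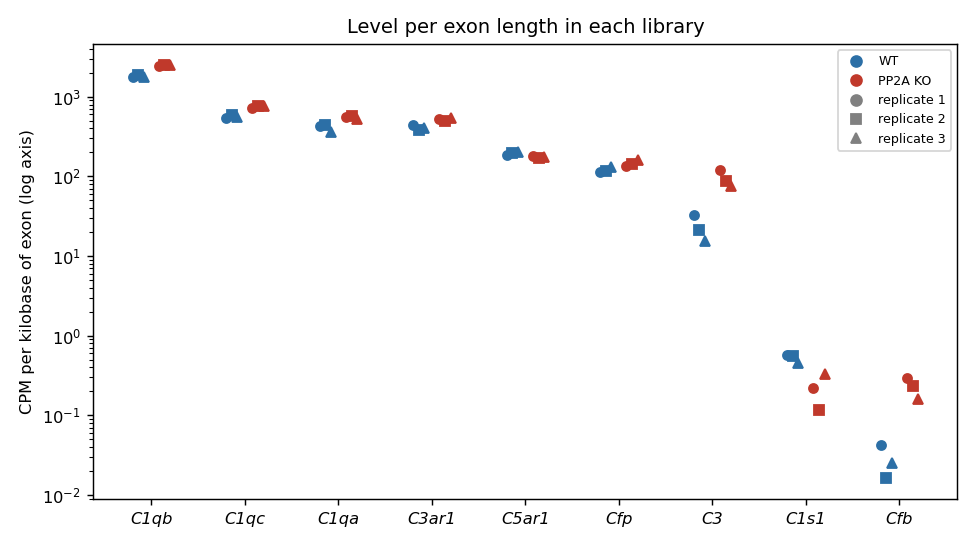
CPM per kilobase of exon (y axis, log scale) of the 9 genes (x axis, in the WT order) in each library, with colours for genotype and symbols for replicate. C1qb is the highest gene and C1s1 and Cfb the lowest in both genotypes, and C3 in PP2Ac KO lies nearer to Cfp than in WT.

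The rest of the cascade was read from a list of 54 complement genes, the 9 included. Of these 27 were tested, 11 were higher, 5 were lower and 11 did not pass, with a median log2 fold change of -0.03 against -0.02 for all genes. Of all genes tested 18.1% were higher and 19% lower, so the lower genes were about as frequent in the list as among all genes. Among the called genes, Cfb and Clu passed the low-count filter only through the group in which they were high. The 27 untested genes had at most 13 counts in any library, and 12 of them had 0 in all. Without the 9, 18 were tested, of which 4 (C1ra, C4b, Cd55 and Cr1l) were higher and 4 (Serping1, Clu, Itgax and Itgb2) were lower, both near the shares among all genes. With the replicate numbers as a block 8 genes of the whole list were lower, against 26.4% of all genes, while leaving out WT replicate 2 reduced the lower genes from 5 to 2 and leaving out PP2Ac KO replicate 1 or 3 reduced them to 3.

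By role, 5 of 7 classical pathway genes tested were higher and 1 was lower, and 3 of 3 alternative pathway genes were higher, where 18.1% of all genes were higher and 19% lower. These groups are small, and 7 of the 9 genes described are among them. The alternative pathway genes include C3, which serves all pathways, and Cfb, which passed the low-count filter only through its PP2Ac KO libraries. In the lectin pathway, which recognizes sugars, 0 of 3 passed. Fcna, a ficolin, had a log2 fold change of 0.25 (edgeR FDR = 0.11; with the replicate block 0.035, without WT replicate 2 FDR = 0.049), Colec12, a collectin, had -0.13 (FDR = 0.35; without WT replicate 3 FDR = 0.047) and Masp1, a protease, had -0.59 (FDR = 0.22; without WT replicate 3 FDR = 0.020). Of the terminal pathway only C8g was tested, with 0.36 (FDR = 0.23), and Hc, the gene for C5, was among the untested genes. Of the membrane regulators, which protect the cell's own surface, 2 of 4 tested were higher and 0 were lower. Cd55, decay-accelerating factor, had 34, 30 and 18 counts in PP2Ac KO and 13, 13 and 10 in WT, with a log2 fold change of 1.40 ± 0.34 (edgeR FDR = 0.011). Cr1l, the rodent regulator Crry, had 70.0, 69.5 and 71.0 CPM against 63.9, 61.9 and 57.4 CPM, a log2 fold change of 0.20 (edgeR FDR = 0.028) that did not pass without any 1 of PP2Ac KO replicates 1, 2 or 3 or WT replicates 2 or 3 (FDR = 0.062 to 0.11), with upper-quartile scaling (0.090) or with no filter (0.067). Without TMM scaling the Cr1l groups overlapped, with 2969 of 46647682 counts in PP2Ac KO replicate 1 and 3176 of 47390899 in WT replicate 1. The call of Cr1l as higher therefore rests on the scaling. Cd46 had -0.03 (FDR = 0.95) and Cd59a had -0.21 (FDR = 0.17).

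**Figure D5:**
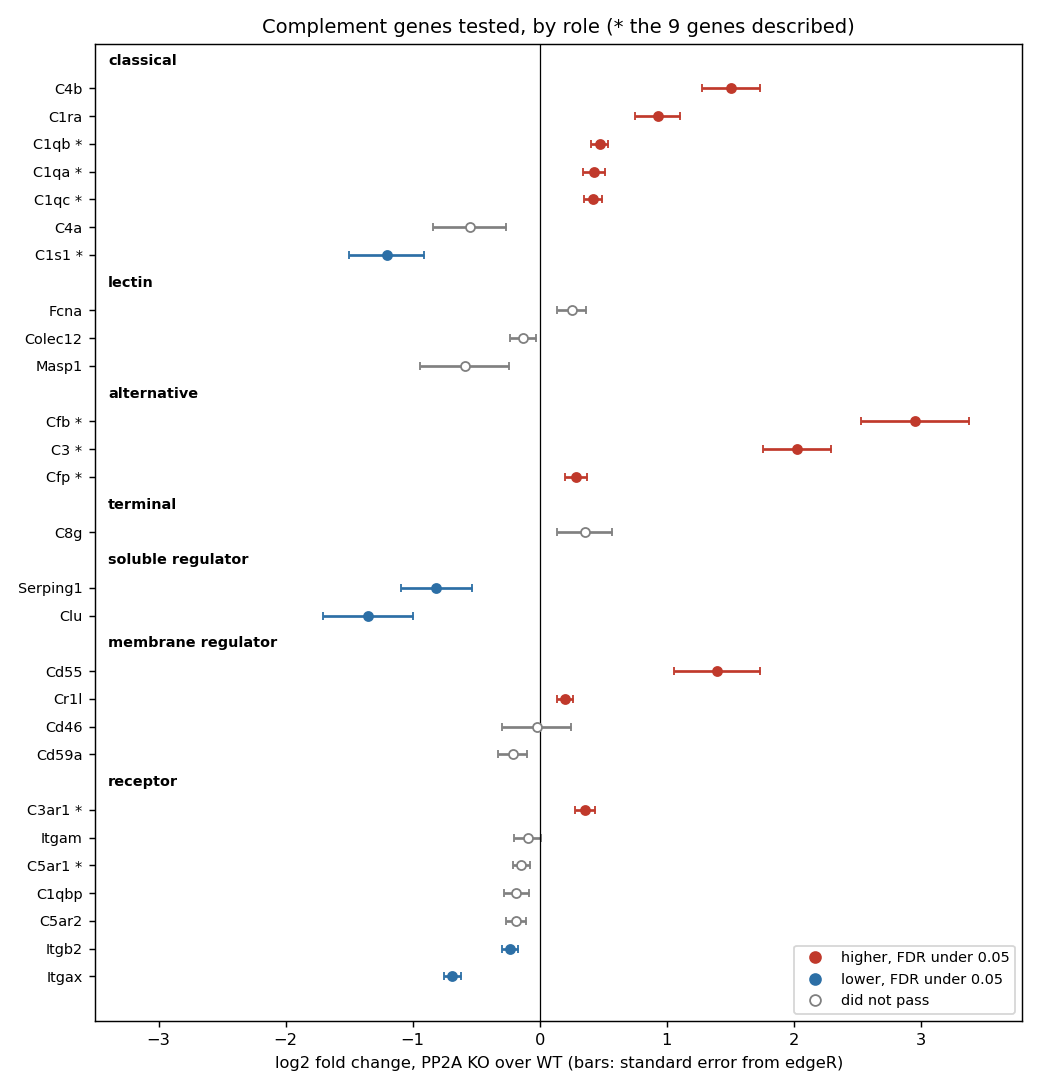
Log2 fold change of PP2Ac KO over WT (x axis, bars for the standard error from edgeR) for the 27 complement genes tested, grouped by role, with a star at the 9 genes described. Filled red points are higher and filled blue points lower at an FDR under 0.05, open points did not pass; both soluble regulators lie left of 0 and all 3 alternative pathway genes right of it.

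For each of the 9 genes the tested genes most alike in log2 CPM over the 6 libraries were listed by Pearson correlation, as a description that includes the step between genotypes. C3 was closest to Crlf3 (0.9999), Minpp1 and Slco3a1, and Cfb to Siglece (0.9998), Zfp319 and Serpinb9. C1qa was closest to 2010110E17Rik (0.998), Cish and Tcn2, C1qb to Coro1b (0.9996), Rhog and Tspan31, and C1qc to Psmb2 (0.998), Rpl19 and Znhit1. Cfp was closest to Parvg (0.998). C3ar1 was closest to Ube2k (0.998), Zc2hc1a and Olfr56, C5ar1 to Zfc3h1 (0.996), Ppp1r3d and Ddx11, and C1s1 to H3f3c (0.997), Ercc4 and Mfap1b. None of the 9 was among the closest 3 genes of another.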

How the data were processed

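The deposited table holds raw counts of reads per gene, without normalization, for 6 poly(A), stranded, paired-end libraries. Per the labels' processing notes, the authors used fastp 0.20.0, kallisto 0.46.1, STAR 2.7.1a, HTSeq 0.11.2, edgeR 3.34.0 and limma 3.48.3 with build mm10. The role of each tool, the counting mode and the strand setting are not given in the sources used here. Library totals ran from 35257156 to 47390899 counts, and intervals and floors cover counting error only.

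Genes were filtered with filterByExpr (minimum count 10, total 15), scaled by TMM and tested with edgeR 4.0.16 (glmQLFit and glmQLFTest) on genotype alone, with Benjamini-Hochberg adjustment over 13680 genes. DESeq2 1.42.0 and limma 3.58.1 served as alternatives. Replicate numbers come from the sample titles, and the deviations of same-numbered libraries from their group means correlated at 0.289, 0.148 and 0.337. Differently numbered libraries were not correlated, so these values do not show whether the numbers pair the libraries. The main test did not use the numbers, and the replicate block was run as an alternative. Single ratios were tested by exact two-sided permutation, where 3 against 3 libraries cannot go below 0.1. Named genes were the 9 members, the other complement genes tested, the 3 closest genes of each member, markers, and rows sharing exons with a member. The members and lists were chosen with earlier results of these data known. Some genes that these rules name are not reported here. Gene positions and exon lengths were taken from GENCODE M21, which held 98.4% of the symbols.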

Additional observations from a re-analysis of the deposited data

How the results depend on the processing

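C1qa, C1qb, C1qc, C3, Cfb, C3ar1 and C1s1 kept their direction and their call under every alternative that gave a value: DESeq2, limma-voom, the replicate block, scaling by RLE or by upper quartiles, omission of the low-count filter, 10 counts in every library (no value for Cfb) and the leaving out of each library. With upper-quartile scaling, which shifted all genes from a median of -0.02 to one of -0.09, Cfp had 0.22 (FDR = 0.079) and C5ar1 -0.21 (FDR = 0.043), so that 2 members were lower. With the replicate block C5ar1 had -0.14 (FDR = 0.026), 2 members were lower, and no other call among the 9 changed; all genes called rose to 24.4% higher and 26.4% lower. In the wider list the block moved 11 higher and 5 lower genes to 12 and 8.

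Without 1 library at a time, 6 to 7 members were higher and 1 to 2 lower, and 9 to 10 genes of the wider list were higher and 2 to 7 lower. Log2 fold changes then ran from 0.35 to 0.47 for C1qa, 0.46 to 0.50 for C1qb, 0.39 to 0.46 for C1qc, 1.80 to 2.37 for C3, 2.69 to 3.40 for Cfb, 0.22 to 0.36 for Cfp, 0.31 to 0.41 for C3ar1, -0.18 to -0.10 for C5ar1 and -1.60 to -0.93 for C1s1. Cd46 changed sign with DESeq2 (0.0038) and without PP2Ac KO replicate 3 (0.19) or WT replicate 3 (0.04), and Itgam without WT replicate 1 (0.016); neither passed in any. Over the libraries left out, Cd46 ran from -0.20 to 0.19 and Itgam from -0.19 to 0.016. Summing Cfb with Gm20547 gave 2.95 again, since Gm20547 had 0 counts. The sum of C4a and C4b and the levels per longest transcript were chosen after seeing the data, and the latter raised C1qc to 908 (WT) and 1213 (PP2Ac KO) CPM per kilobase and left the order of the 9 genes as it was. The cause of the changed calls was not tested. Counts under 100 per library limit Cfb and C1s1, and 3 libraries per group limit every test.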
